A study of Mus musculus with 8 samples.

Results

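The genes of thyroid hormone action Dio1, Dio2, Thra, Thrb and Klf9 were followed across tumours and non-tumour mucosa of the small intestine of Apc mutant mice with and without HAI-1. All probe sets that the platform annotation assigns to 1 of these 5 genes alone were taken, which gave 5 of 18194 genes with such a probe set, and 15 of the 45101 probe sets on the array, 34958 of which list a single gene. Dio1 had 1 probe set, Dio2 3, Thra 3, Thrb 1 and Klf9 7, and 0 further probe sets listed one of them together with another gene. Dio1 was selected on its measured signal in mucosa of both genotypes, low without HAI-1. Its values in every comparison whose difference takes in those arrays are therefore given as a description, without a test. The other 4 genes were listed for their part in thyroid hormone action.

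Deiodinases are selenoenzymes that add or remove activity from thyroid hormone by taking iodine off its rings. Dio1, known from liver, kidney and thyroid, can both activate thyroxine to triiodothyronine and inactivate it, while Dio2 activates thyroxine inside the cell that expresses it. Triiodothyronine binds the nuclear receptors encoded by Thra and Thrb, and the receptor made from Thra is known to act in proliferating crypt cells of the mouse intestine. Klf9 is a zinc-finger transcription factor that thyroid hormone and glucocorticoids induce in several tissues.

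All mice were C57BL/6 on an AIN-76 diet, carried the Min allele of Apc (Apc Min/+), which gives rise to intestinal tumours, and had Spint1, the gene of the membrane-bound protease inhibitor HAI-1, flanked by loxP sites (Spint1 flox/flox). The control mice, Apc Min/+ / Spint1 flox/flox, had no Cre, and the HAI-1 deficient mice, Apc Min/+ / Spint1 flox/flox / Vil-Cre, carried Cre under the villin promoter, which is active in intestinal epithelium and leaves Spint1 intact in the other cells of the tissue. Mucosa and tumours of both genotypes made 4 groups of 2 arrays each, and the mice had no further treatment named in the labels. Ages are not given, nor is it said whether the arrays of a group hold different mice or whether mucosa and tumour were paired within a mouse. The p-values therefore speak of the scatter among these arrays, which may be technical.

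The promoters of Dio1 and Dio2, the members that differed most between groups, are shown to place the letters of factors known to act on them. Each window runs from 250 bases before to 50 after the annotated start, on GRCm38.p6 from RefSeq. In the Dio1 window, chr4:107307119-107307418 on the minus strand, capitals mark CAAAG on either strand, the core of an HNF4 half-site, and CACCC, a box that Kruppel-like factors bind. In the Dio2 window, chr12:90738989-90739288 on the minus strand, capitals mark TGACGTCA, the full cAMP response element.
Dio1 promoter: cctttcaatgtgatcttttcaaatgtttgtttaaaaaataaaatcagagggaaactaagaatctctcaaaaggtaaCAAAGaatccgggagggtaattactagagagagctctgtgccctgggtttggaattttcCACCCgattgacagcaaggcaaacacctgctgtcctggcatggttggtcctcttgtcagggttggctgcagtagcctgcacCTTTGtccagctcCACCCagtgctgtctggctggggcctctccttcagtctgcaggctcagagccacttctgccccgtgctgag
Dio2 promoter: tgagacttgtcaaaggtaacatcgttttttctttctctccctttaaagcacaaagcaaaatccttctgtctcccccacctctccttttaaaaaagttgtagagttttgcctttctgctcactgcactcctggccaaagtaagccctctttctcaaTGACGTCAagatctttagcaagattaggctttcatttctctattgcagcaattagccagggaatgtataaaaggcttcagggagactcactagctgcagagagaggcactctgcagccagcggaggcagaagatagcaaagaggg
The Dio1 window held CAAAG 2 times, 1 on each strand, and CACCC 2 times, against 54% and 57.5% of the 32817 promoter windows of the same length that held each at least 1 time on either strand. The Dio2 window held CAAAG 4 times, outside the capitals, and CACCC 0 times. TGACGTCA stood 1 time in the Dio2 window, 0 times in that of Dio1, and in 1.79% of all windows. AGGTCA, the half-site of thyroid hormone receptors, and GATAA, one form of the letters of GATA factors, were absent from both windows. Of all windows 16.3% and 25.4% held them. Other forms were not counted, and GATAG stands near the end of the Dio2 window, so a lack of GATA letters is not shown. The matches in each window do not overlap, and a match describes the letters only.

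Signals are deposited log2 values, where a difference of 1 is a doubling. The level at the 40th percentile of all probe set means, 5.20 (36.8 without the log), served as a filter for dim probe sets. It left 27061 probe sets, 14 of the 15 member probe sets among them, and the limma test was adjusted over all 27061 by the Benjamini-Hochberg method. The member left out was Klf9 1452723_at with a mean of 4.84, and the one just inside was Dio2 1426081_a_at with a mean of 5.24, which passed through its tumour arrays. Spint1, the targeted gene, read 12.87 and 13.00 in control mucosa, 12.46 and 12.25 in deficient mucosa, 12.75 and 13.06 in control tumours, and 11.76 and 11.84 in deficient tumours, lower on every deficient array than on every control array, yet past the threshold in neither tissue. The difference of Spint1 was -0.58 ± 0.26 (SE) in mucosa (limma, adjusted p = 0.400) and -1.10 ± 0.26 in tumours (adjusted p = 0.759). Where this probe set lies relative to the deleted stretch is not known here.

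Some arrays stand apart. The ratio of 3′ to 5′ Gapdh signal, a measure of RNA integrity, was 25.9 on control tumour array 2 and 0.803 to 1.77 on the other 7. The poly-A spike-in control probe sets averaged 7.90 to 8.35 on array 2 of both mucosa groups and of the deficient tumours, against 6.22 to 7.02 elsewhere. The 18S ribosomal RNA probe sets averaged 14.6 and 13.6 on array 2 of control and deficient mucosa, against 7.61 to 10.1 on the other 6. Both control tumour arrays had a low spike-in signal, so values within the low-spike arrays are given beside the differences that rest on them. For tumour against mucosa in control mice, such a value rests on control mucosa array 1 and equals the one without control mucosa array 2. Since the tissue is a mixture, fewer cells of a type and less RNA per cell cannot be told apart for any member.

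Dio1 was bright in mucosa of control mice and low in mucosa of HAI-1 deficient mice. Probe set 1417991_at read 12.34 and 11.65 in control mucosa (mean 11.99 ± 0.49, SD, n = 2) and 6.68 and 6.98 in deficient mucosa (6.83 ± 0.22). All 4 mucosa values separate cleanly by genotype, and the deficient ones lie below both control tumour arrays as well. This 35.9-fold lower signal, a log2 difference of -5.17 ± 0.72 (SE), is the one Dio1 was chosen for. It was -5.66 within the low-spike arrays and -4.67 within the high-spike arrays, with 1 array of each genotype on either side, and whether the spike-in signal plays a part was not tested.

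In control tumours Dio1 lay between control and deficient mucosa, and in deficient tumours it was uneven. The control tumours read 9.15 and 9.13 (9.14 ± 0.01) and the deficient tumours 8.18 and 5.72 (6.95 ± 1.74). The deficient tumour arrays both lie below the control tumours without overlap, but they are far apart from each other, and they enclose the deficient mucosa. HAI-1 loss in tumours gave -2.19 ± 0.72, a 4.57-fold lower signal, which did not pass (limma, adjusted p = 0.759, unadjusted p = 0.0176). These 4 arrays played no role in choosing Dio1. The SE and p-value, though, pool the scatter of all 4 groups, including the mucosa arrays Dio1 was chosen on. The test is therefore not independent of that choice. The difference rests on deficient tumour array 2, since it was -0.96 without that array and -3.42 without the other. No probe set was called in this comparison, 0% of 27061, with 1769 at an unadjusted p under 0.05.

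In control mice, tumours and mucosa did not overlap in Dio1, at -2.85 ± 0.72 or a 7.23-fold lower signal in tumours, and -3.20 within the low-spike arrays. Leaving out 1 array kept it between -3.20 and -2.51. In HAI-1 deficient mice tumours and mucosa overlapped, at 0.12 ± 0.72, with 1.50 within the low-spike arrays and -1.26 within the high-spike arrays. Both comparisons use mucosa arrays that Dio1 was chosen on, so they are given without a test. The same holds for the interaction, the genotype difference in tumours less the one in mucosa, which was 2.97 ± 1.01. It was 4.20 without deficient tumour array 2 and 1.74 without the other. Ordered by mean, Dio1 ran from control mucosa through control tumours to the deficient tumours and deficient mucosa, and the last pair in that order overlap.

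**Figure D1:**
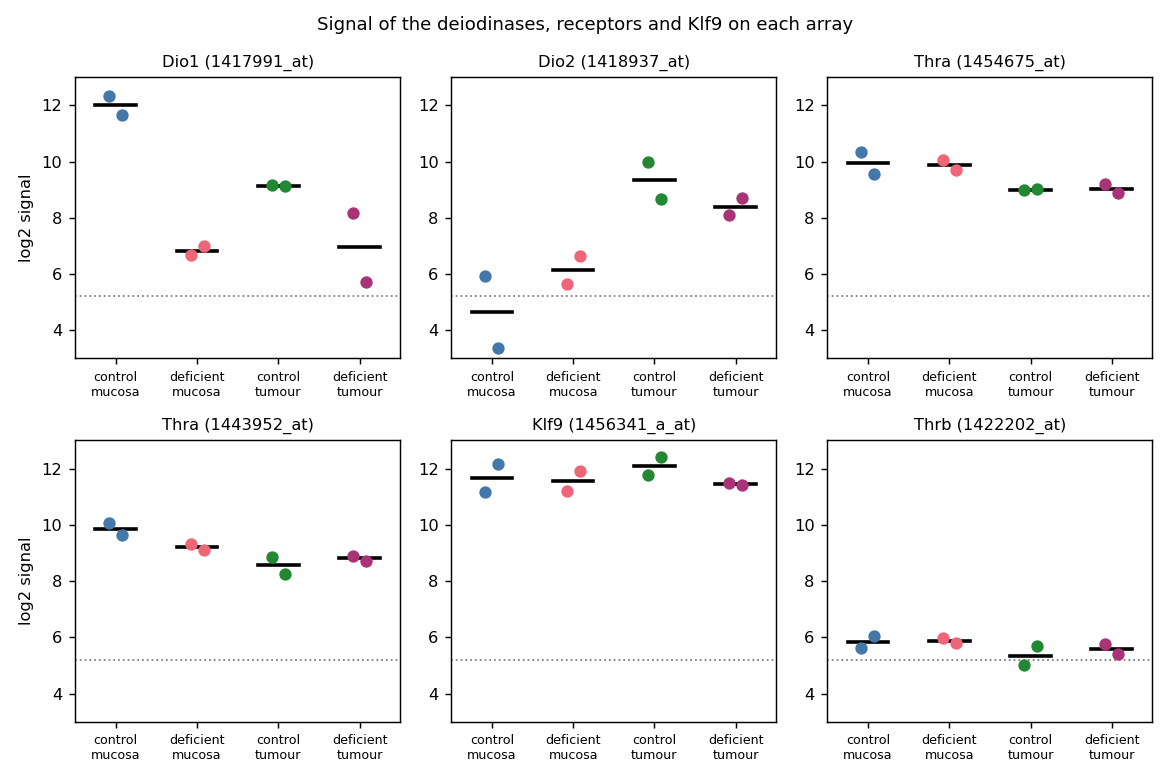
Log2 signal (y axis) of 6 member probe sets on each array by group (x axis), with points for arrays, bars for group means and a dotted line at the filter value of 5.20. Dio1 falls from 11.99 in control mucosa to 6.83 in deficient mucosa, and Dio2 1418937_at is highest in control tumours at a mean of 9.34.

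Several marker lists also differed between the mucosa groups. Of 7 ileum genes 5 were tested, and their summed linear signal was 26023 to 29813 in control mucosa, 13958 to 16322 in deficient mucosa, 3028 to 5121 in control tumours and 3440 to 4758 in deficient tumours. These sums were higher in deficient mucosa than in control tumours, and 4 of the 5 genes fell in control tumours. Under HAI-1 loss in mucosa 4 of the 5 were lower and 0 passed, with a median of -0.49 against 0.11 over all probe sets. The differences ran from -1.77 for Cubn, the cobalamin receptor of the ileum, to 1.21 for Fabp6, the ileal bile acid-binding protein. Fabp6 was dim, at 4.47 and 5.23 in control mucosa, and its difference was 0.85 with dim arrays raised to the filter value. Of the 9 proximal small intestine genes 8 were higher in deficient mucosa, with a median of 0.43 and 0 past the threshold, while their sums overlapped, at 110290 to 120940 in control mucosa and 112100 to 125060 in deficient mucosa. Cybrd1, a duodenal ferric reductase, read 5.44 and 5.48 in control mucosa and 8.36 and 7.84 in deficient mucosa. The 7 endothelial genes summed to 486 to 556 in control mucosa and 1198 to 1905 in deficient mucosa, with 6 higher, a median of 1.78 and 0 past the threshold.

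The 8 T and natural killer cell genes summed to 19366 to 20647 in control mucosa, 7072 to 8740 in deficient mucosa, 8552 to 10545 in control tumours and 2677 to 4932 in deficient tumours. All 8 were lower in deficient mucosa with a median of -1.39, and 0 passed. The 14 enterocyte genes tested of 16 summed to 297260 to 305760 in control mucosa and 270750 to 325010 in deficient mucosa, which overlap, and their median was -0.02. On each of these lists 0 tested genes were under the filter value on all arrays. The part of these markers in the Dio1 values was not tested.

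HNF4 alpha, GATA4 and KLF9 are known to act together on the Dio1 promoter in mouse liver. None of their genes was called for HAI-1 loss in mucosa, where 15 of 27061 probe sets, 0.0554%, were called. Hnf4a read 13.78 and 13.42 in control mucosa and 13.78 and 13.23 in deficient mucosa, a difference of -0.09 ± 0.32 (limma, adjusted p = 0.948). Gata4 read 10.01 and 9.53 in control mucosa and 10.84 and 9.56 in deficient mucosa, at 0.43 ± 0.50 (adjusted p = 0.794). For both genes the genotypes overlap, and the part of these factors in the Dio1 values was not tested.

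By likeness of profile, taken as the root mean square difference of log2 values centred on each gene's mean over the 8 arrays, 12474 genes were ranked against Dio1. The closest 5 were Ido1, an enzyme of tryptophan breakdown, at 0.75, Herc6, a ubiquitin ligase, at 0.78, Kcnj13, a potassium channel, at 0.81, Ubd, a ubiquitin-like modifier, at 0.81, and Afp, alpha-fetoprotein, at 0.82. Dio1 itself varied about its mean by 2.19. Ido1 read 12.31 and 11.97 in control mucosa, 8.84 and 8.38 in deficient mucosa, 9.73 and 9.83 in control tumours, and 9.40 and 7.80 in deficient tumours. Like Dio1, these 5 genes were highest on the control mucosa arrays, and each was lower on deficient tumour array 2 than on deficient tumour array 1. Because they were ranked on these same 8 arrays, such likeness follows from the choice and is a description only.

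**Figure D2:**
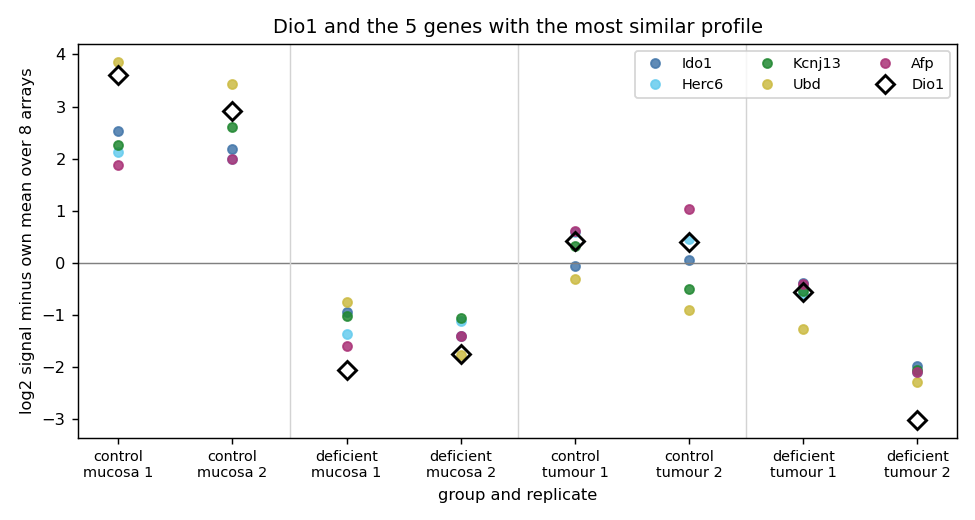
Log2 signal minus each gene's own mean over 8 arrays (y axis) for Dio1 (diamonds) and the 5 closest genes (circles) on each array (x axis, group and replicate). The genes were chosen for closeness on these arrays. The control mucosa arrays stand highest for every gene shown, and Dio1 is lowest on deficient tumour array 2, where its signal was 5.72.

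Dio2, the enzyme that makes triiodothyronine within the cell, ran the other way in control mice and was higher in tumours. Its brightest probe set, 1418937_at, read 5.92 and 3.38 in control mucosa (4.65 ± 1.80, SD, n = 2), 5.64 and 6.65 in deficient mucosa (6.15 ± 0.72), 9.99 and 8.68 in control tumours (9.34 ± 0.93) and 8.09 and 8.69 in deficient tumours (8.39 ± 0.42). Every tumour array lies above every mucosa array, and 1 control mucosa array lies under the filter value. The fitted difference in control mice was 4.69 ± 0.85 (limma, adjusted p = 0.0127). With that dim array raised to the filter value the log2 difference was 3.77, or 13.7-fold, and within the low-spike arrays it was 3.41. The call was lost without control tumour array 1, at 4.03 (adjusted p = 0.0615).

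In HAI-1 deficient mice the same probe set was 2.24 ± 0.85 higher in tumours, or 4.74-fold, without overlap, and did not pass (limma, adjusted p = 0.222, unadjusted p = 0.0321). The value was 2.45 within the low-spike arrays and 2.04 within the high-spike ones. HAI-1 loss left the genotypes overlapping in both tissues, at 1.50 ± 0.85 in mucosa (adjusted p = 0.52) and -0.95 ± 0.85 in tumours (adjusted p = 0.817). The mucosa value had opposite signs within the low-spike arrays, at -0.28, and within the high-spike arrays, at 3.28. The difference between the genotypes in the tumour effect was -2.44 ± 1.20 and did not pass (limma, adjusted p = 0.693), so a tumour rise particular to control mice was not shown. Left without control mucosa array 1 it was -3.71, and without control mucosa array 2, the dim one, -1.17.

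The other Dio2 probe sets were dim and did not move alike. 1426081_a_at read 5.13 and 3.48 in control mucosa, 4.62 and 5.34 in deficient mucosa, 6.60 and 5.50 in control tumours, and 6.09 and 5.20 in deficient tumours. Its mucosa means lie under the filter value and its tumour means above it, so it entered the test through the tumours and its tumour difference is not read as a result. 1418938_at read 5.01 and 5.43 in control mucosa, 6.04 and 7.01 in deficient mucosa, 5.82 and 4.64 in control tumours, and 5.36 and 5.41 in deficient tumours. This probe set was highest in deficient mucosa, where the genotypes did not overlap, at 1.31 ± 0.48 (adjusted p = 0.306), and it was level between tumour and mucosa of control mice at 0.01 ± 0.48 (adjusted p = 0.99). The tumour call for Dio2 therefore rests on 1 of its 3 probe sets.

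Markers of stroma rose in control tumours, as did those of some other cells. All 10 fibroblast genes were tested and all 10 rose in control tumours, with a median of 3.46 against 0.09 over all probe sets. Their summed linear signal was 2715 to 2978 in control mucosa, 5112 to 6758 in deficient mucosa, 32653 to 35134 in control tumours and 22912 to 23013 in deficient tumours. Of 8 smooth muscle genes 7 were tested and 7 rose in control tumours, with a median of 3.33. Over all genes 17.1% were called higher there. Of 7 crypt stem and cycling genes 5 were called higher and 0 lower, with a median of 1.70. Of 7 endothelial genes 3 were called higher and 0 lower, with a median of 1.40. Of 14 enterocyte genes 0 were called higher and 5 lower. None of the tested genes of these lists was under the filter value on all arrays. The part of these markers in the Dio2 values was not tested. The 5 genes with the profile closest to Dio2 were Loxl1, an enzyme that cross-links elastin, at 0.50, Slc38a4, an amino acid transporter, at 0.63, Cryab, a small heat shock protein, at 0.65, Khdrbs3, an RNA-binding protein, at 0.67, and Tal1, a transcription factor of blood and vessel development, at 0.68, where Dio2 varied about its mean by 1.998. Of these, Loxl1, Cryab, Khdrbs3 and Tal1 had their lowest value on control mucosa array 2, between 1.86 and 2.74 and under the filter value, as Dio2 did. They were ranked on the same arrays, so this likeness follows from the choice and is a description only.

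**Figure D3:**
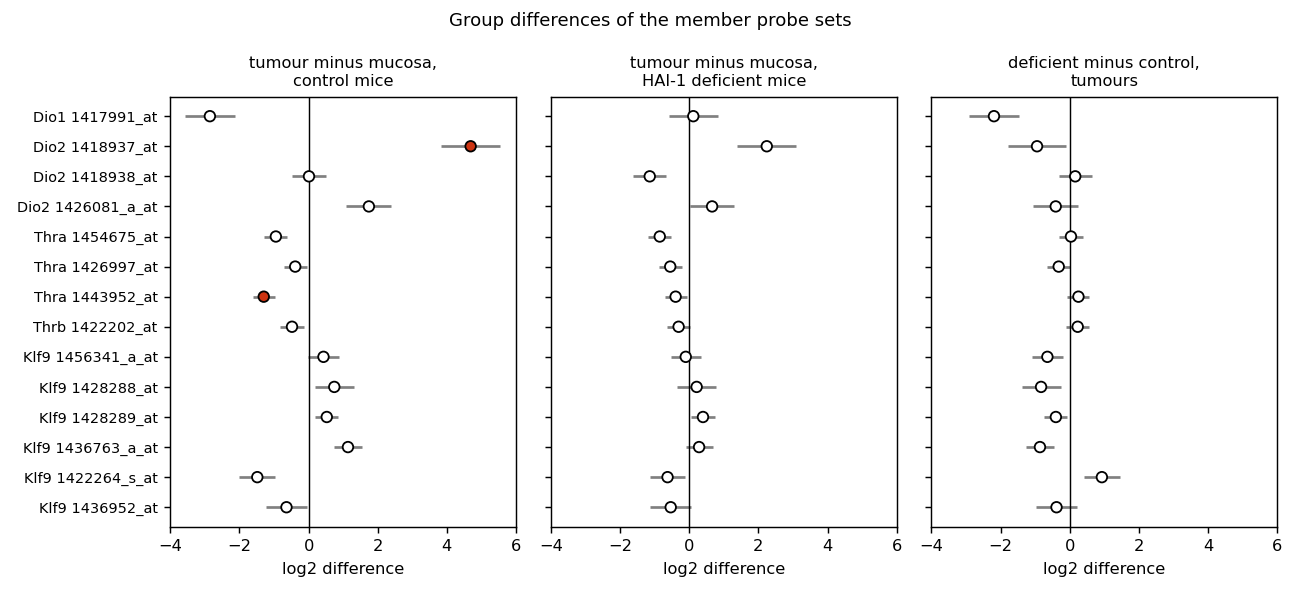
Log2 difference with its SE (x axis) for the 14 tested member probe sets (y axis) in 3 comparisons, with filled points for adjusted p under 0.05. Dio1 was tested only for HAI-1 loss in tumours, where it did not pass (limma, adjusted p = 0.759), so it is filled in no panel. The filled points are Dio2 1418937_at at 4.69 and Thra 1443952_at at -1.30 in control mice.

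Thra was expressed in every group and lower in tumours, with 1 of 3 probe sets past the threshold. Probe set 1443952_at read 10.08 and 9.63 in control mucosa, 9.30 and 9.10 in deficient mucosa, 8.86 and 8.26 in control tumours, and 8.90 and 8.72 in deficient tumours. Each tumour array lies below each mucosa array, and the tumours of both genotypes overlap. The control tumours were 2.46-fold lower than control mucosa, at -1.30 ± 0.32 (limma, adjusted p = 0.0305). The value was -1.52 within the low-spike arrays, where control mucosa array 1 stands alone for its group. The call was lost without control mucosa array 1 (-1.07, adjusted p = 0.15) or array 2 (-1.52, 0.0632), without control tumour array 2 (-0.998, 0.154) and without either deficient mucosa array (0.0509). In deficient mice the difference was -0.39 ± 0.32 (adjusted p = 0.557).

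The brightest Thra probe set, 1454675_at, read 10.33 and 9.56 in control mucosa, 10.06 and 9.71 in deficient mucosa, 8.98 and 9.02 in control tumours, and 9.20 and 8.87 in deficient tumours. Here too all tumour arrays lie below all mucosa arrays. The differences were -0.95 ± 0.34 in control mice (limma, adjusted p = 0.0907) and -0.85 ± 0.34 in deficient mice (adjusted p = 0.237), neither past the threshold. For 1426997_at tumour and mucosa overlapped in control mice, at -0.39 ± 0.33 (adjusted p = 0.447), and the value was -0.55 ± 0.33 in deficient mice (adjusted p = 0.421). All 3 Thra probe sets thus had the same sign in both genotypes. No Thra difference by HAI-1 loss passed in either tissue. In mucosa 1454675_at gave -0.06 ± 0.34 (adjusted p = 0.968) and 1443952_at -0.65 ± 0.32 without overlap (adjusted p = 0.438), and in tumours 1443952_at gave 0.25 ± 0.32 (adjusted p = 0.861).

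Thrb, the receptor that predominates in liver, was dim on all arrays. Probe set 1422202_at read 5.61 and 6.05 in control mucosa, 5.99 and 5.78 in deficient mucosa, 5.01 and 5.69 in control tumours, and 5.75 and 5.41 in deficient tumours. The range over all arrays was 1.04, close to the filter value, and 1 array was under it. The largest of its 4 group differences was -0.48 ± 0.34 for tumour against mucosa in control mice (limma, adjusted p = 0.355), so no order among the groups can be read from this probe set. The closest profiles to Thra were those of Fcgrt, the neonatal Fc receptor, at 0.10, Elmo2 at 0.11, Wdr91 at 0.13, and Ier5 and Zdhhc7 at 0.14, where Thra varied about its mean by 0.50. For Thrb, which varied by 0.31, they were Gstt2, a glutathione transferase, at 0.13, and Arhgap25, Mterf2, Crygf and Stmnd1, all at 0.16.

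Klf9, a target of the receptors in several tissues, was bright in every group and was not called in any comparison. Its brightest probe set, 1456341_a_at, read 11.16 and 12.17 in control mucosa, 11.19 and 11.91 in deficient mucosa, 11.77 and 12.42 in control tumours, and 11.48 and 11.42 in deficient tumours. The 2 arrays of a mucosa group differ by more than the group means do. Tumour against mucosa in control mice gave 0.43 ± 0.44 (limma, adjusted p = 0.531) and HAI-1 loss in mucosa -0.12 ± 0.44 (adjusted p = 0.952). In tumours the deficient arrays lay below the control ones without overlap, at -0.65 ± 0.44 (adjusted p = 0.783).

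The Klf9 probe sets disagreed in direction. In control mice 4 of the 6 tested were higher in tumours and 2 lower, from -1.48 to 1.14, none of them past the threshold. Among the higher ones, 1436763_a_at read 7.65 and 8.03 in control mucosa and 8.42 and 9.54 in control tumours, at 1.14 ± 0.39 (limma, adjusted p = 0.0839). Of the lower ones, 1422264_s_at read 7.002 and 7.51 in control mucosa and 6.60 and 4.94 in control tumours, at -1.48 ± 0.52 (adjusted p = 0.0862). The highest value of the first and the lowest of the second stood on control tumour array 2, the array with the high Gapdh ratio, whose part in them was not tested. Without control tumour array 1 they passed in opposite directions, at 1.70 (adjusted p = 0.0367) and -2.32 (adjusted p = 0.0214). Under HAI-1 loss in tumours the signs were exchanged, at -0.86 ± 0.39 for 1436763_a_at (adjusted p = 0.759) and 0.93 ± 0.52 for 1422264_s_at (adjusted p = 0.768). Both comparisons use the same control tumour arrays, on opposite sides, so the exchange is no separate result. 1428288_at and 1428289_at, both bright, gave 0.74 ± 0.56 and 0.53 ± 0.33 in control mice with overlapping groups. 1436952_at, near the filter value, gave -0.64 ± 0.60, and the untested 1452723_at stayed between 4.12 and 5.43. The closest profiles to 1456341_a_at were Lats2, a kinase of the Hippo pathway, at 0.13, Mbnl2, a splicing regulator, at 0.17, Cnih2 at 0.18, and Zfp943 and Mapk9 at 0.20, where Klf9 varied about its mean by 0.43.

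**Figure D4:**
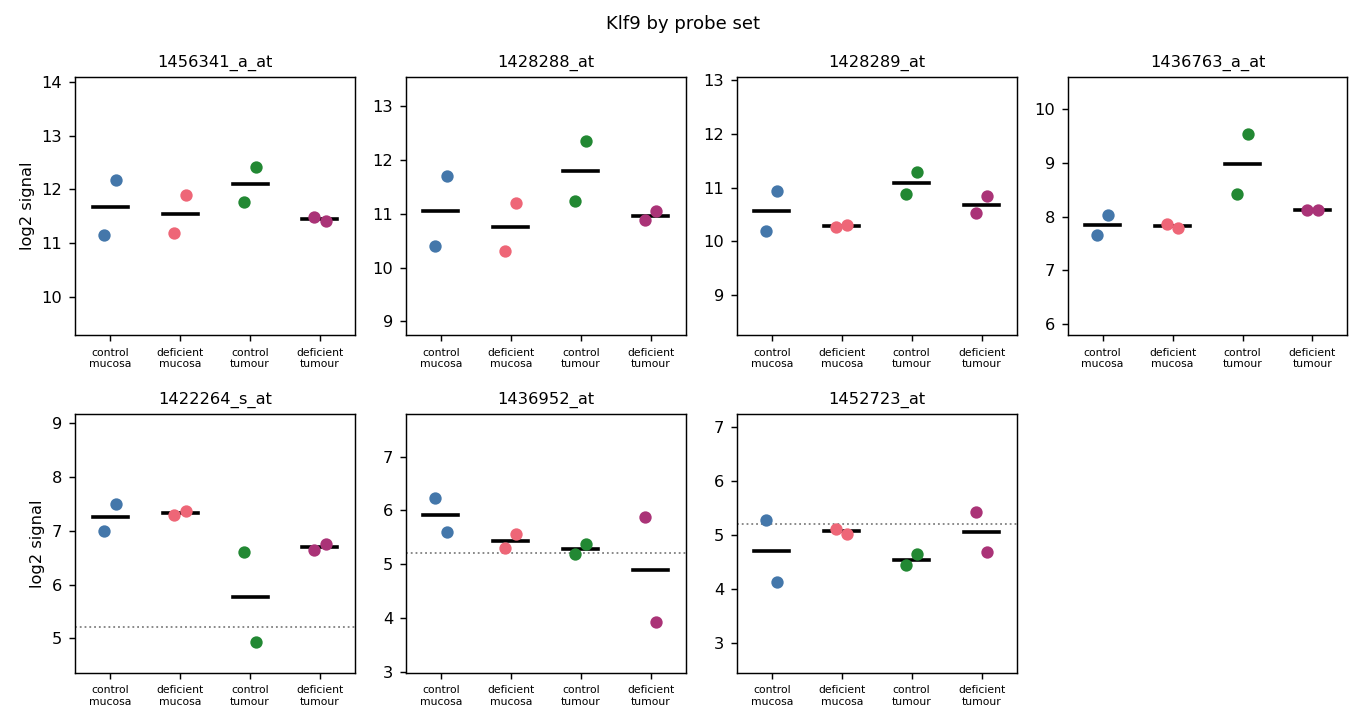
Log2 signal (y axis, own range of equal span in each panel) of the 7 Klf9 probe sets by group (x axis), with points for arrays, bars for means and a dotted line at the filter value of 5.20 where it falls in range. Control tumour array 2 is the highest point for 1436763_a_at at 9.54 and the lowest for 1422264_s_at at 4.94.

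Leaving out Dio1, 2 of 13 member probe sets were called between tumour and mucosa of control mice, 1 higher and 1 lower, beside 19.2% of all 27061 probe sets called, 12.8% higher and 6.36% lower. This share is near the background. At an unadjusted p under 0.05 (limma) stood 6 of these 13 members, beside 9453 of the 27061 probe sets. In HAI-1 deficient mice 0 of 13 were called, beside 0.0148% of all. Under 0.05 unadjusted were 3 members there, beside 5074 of the 27061 probe sets. For HAI-1 loss in mucosa, 0 of the 13 tested without Dio1 were called, beside 0.0554% of all, 0.048% higher and 0.00739% lower. Here 1 member was under 0.05 unadjusted, beside 3611 of the 27061 probe sets. In tumours 0 of 14 were called, beside 0% of all, with 1 member under 0.05 unadjusted, beside 1769 of the 27061 probe sets. The interaction called 0 of 13 members, beside 0% of all, where 2065 probe sets and 0 members had an unadjusted p under 0.05.

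Lists of related genes are described by the brightest tested probe set of each gene, over which 22.6% of 13119 genes were called in control tumours, 17.1% higher and 5.49% lower, and nothing particular to a list is read from its count. Transporters that carry thyroid hormone into cells were called in both directions. Of 11 transporters 7 were tested, 1 rose and 3 fell, with a median of 0.18. Slc7a8 and Slc3a2, which form heterodimeric amino acid and thyroid hormone carriers, fell by 2.95 ± 0.41 (limma, adjusted p = 0.00649) and by 1.87 ± 0.30 (adjusted p = 0.00959). Slc16a10, a carrier of aromatic amino acids and thyroid hormone, fell by 2.73 ± 0.51 (adjusted p = 0.0141), and Slc7a5, another partner of Slc3a2, rose by 1.78 ± 0.47 (adjusted p = 0.0401), or 1.09 without control tumour array 1 (adjusted p = 0.142). Of 8 genes that otherwise bind or modify the hormone 6 were tested, 1 rose and 2 fell. Ttr, the plasma carrier transthyretin, rose by 3.70 ± 0.43 (adjusted p = 0.00415), from 6.85 and 7.88 in control mucosa to 11.00 and 11.13 in control tumours. Sult1b1, a sulfotransferase that takes iodothyronines, fell by 1.58 ± 0.26 (adjusted p = 0.0102), and Aldh1a1, a retinaldehyde dehydrogenase, fell by 2.17 ± 0.50 (adjusted p = 0.0263).

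Of 16 receptor partners and cofactors 13 were tested, and 11 did not pass in control tumours. Rxra, the retinoid X receptor that pairs with thyroid hormone receptors, fell by 1.17 ± 0.26 (limma, adjusted p = 0.0242), and Tbl1x, a corepressor subunit, rose by 1.41 ± 0.30 (adjusted p = 0.0207). With the mean of a gene's probe sets in place of the brightest, neither passed, at -0.50 for Rxra (adjusted p = 0.251) and 0.12 for Tbl1x (adjusted p = 0.775). Of 18 genes known to respond to thyroid hormone in liver, gut or the frog intestine 14 were tested, 5 rose and 1 fell, beside the 22.6% called over all genes, with a median of 0.39. Me1, the malic enzyme induced by the hormone in rodent liver, rose by 2.71 ± 0.60 (adjusted p = 0.0228) and Ccnd1, a cyclin, by 1.36 ± 0.29 (adjusted p = 0.0194). Timp3, an inhibitor of matrix metalloproteinases, rose by 2.57 ± 0.53, or by 2.41 with dim mucosa arrays raised to the filter value. The fifth of those counted as higher, the metalloproteinase Mmp11, lay under the filter value on all 4 mucosa arrays and entered the test through the tumours, and with dim arrays raised it did not pass, at 1.14 (adjusted p = 0.0543). Bmp4 rose by 1.97 ± 0.55, and Lct, lactase, which is also on the enterocyte list, fell by 2.25 ± 0.62 (adjusted p = 0.0452), and its difference was -1.18 without control tumour array 2 (adjusted p = 0.0983).

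As Dio1 and Dio2 are selenoproteins, 21 others were listed, of which 20 were tested, 3 rose and 1 fell in control tumours, near the 22.6% called over all genes, with a median of 0.04. Selenon, of the endoplasmic reticulum, rose by 2.79 ± 0.30 (limma, adjusted p = 0.00366), Selenoh by 2.87 ± 0.44 (adjusted p = 0.0083) and Gpx3, the extracellular glutathione peroxidase, by 1.58 ± 0.31 (adjusted p = 0.0154), while Selenok fell by 1.16 ± 0.29 (adjusted p = 0.0348), a call lost with the mean of its probe sets at -0.74 (adjusted p = 0.0581). Of 9 genes that make or insert selenocysteine 8 were tested, and Eefsec and Trnau1ap rose while Sepsecs fell. Of 16 other Kruppel-like factors 15 were tested and Klf13 alone passed, at 1.19 ± 0.30 (adjusted p = 0.0347). Of 16 glucocorticoid-responsive or steroid-making genes 15 were tested, Hsd11b1 and Hsd11b2, which activate and inactivate glucocorticoid, rose by 2.10 ± 0.48 and 1.95 ± 0.48, and Tsc22d3 fell by 1.72 ± 0.41. Of 30 other nuclear receptors 25 were tested, with Rarb and Nr4a1 higher and Nr1h3, Nr1i3, Hnf4g and Nr1i2 lower, from 2.19 for Rarb to -2.24 for Nr1h3, again near the 22.6% over all genes. Other settings removed many of these calls. Of the 32 genes called on the 9 lists, 6 kept the call without the filter on dim probe sets and 20 with a spike-in block. Of the same 32, 7 kept the call without control mucosa array 1, 10 without control mucosa array 2, 11 without control tumour array 1 and 8 without control tumour array 2.

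In the other comparisons 0 genes of the 9 lists were called. For HAI-1 loss in mucosa, the smallest p-values on the lists belonged to Mt1 and Mt2, the metallothioneins, which were 1.83 ± 0.31 (limma, adjusted p = 0.0926) and 1.86 ± 0.36 (adjusted p = 0.11) higher on the log2 scale without overlap of the genotypes. With the mean of its probe sets Mt1 passed, at 3.68 (adjusted p = 0.0144). Sult1a1, a phenol sulfotransferase, read 6.01 and 5.08 in control mucosa and 7.30 and 7.39 in deficient mucosa, at 1.80 ± 0.39 (adjusted p = 0.137). Ttr was 1.67 ± 0.43 higher (adjusted p = 0.174).

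**Figure D5:**
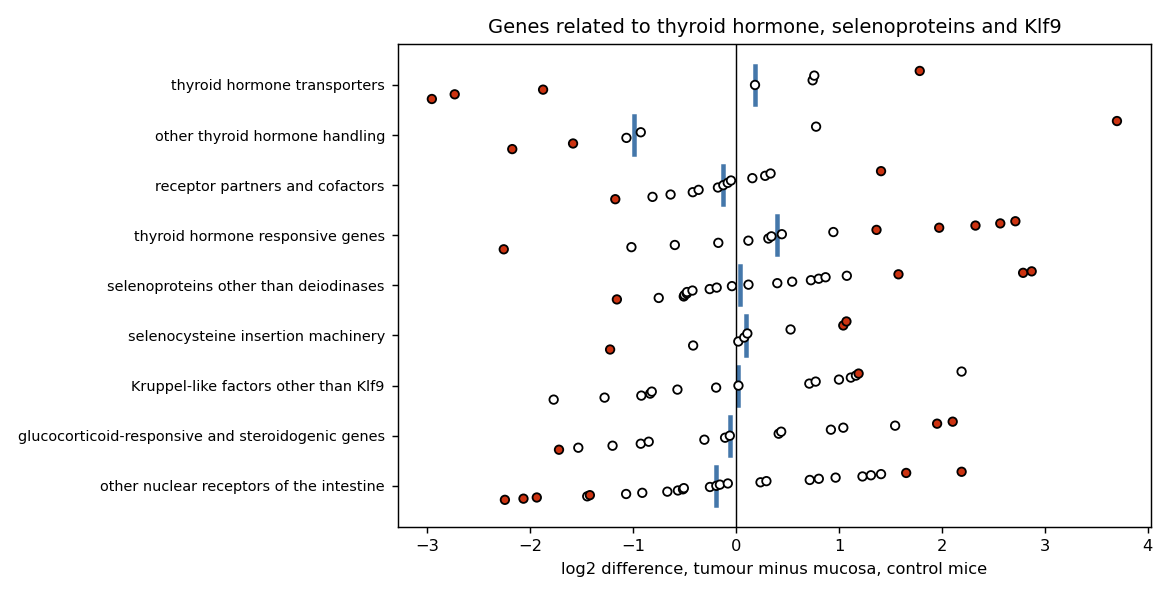
Log2 difference of tumour minus mucosa in control mice (x axis) for each tested gene of 9 lists (y axis), with filled points for adjusted p under 0.05 and blue bars for list medians. Filled points lie on both sides of 0 in 8 of the lists, and on the side of the tumours alone for the Kruppel-like factors.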

How the data were processed

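RNA of 8 samples was hybridised to Affymetrix mouse arrays, after biotin labelling of 6 ug of total RNA in a single cycle, per the labels' protocols. The deposited table holds 1 log2 value per probe set and array, 45101 in all. MAS5 and RMA are both named in the submitters' processing notes, with roles not given in the sources used here. After undoing the log, the 2% trimmed mean of an array was 500.003 to 500.004, a scaling of the MAS5 kind. Dim signals of that kind carry large log2 errors. Detection calls were not used here, and the number of arrays limits the precision.

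Probe sets were assigned with GEO's platform annotation. The model, with limma 3.58.1, held 4 group means over the 8 arrays (R 4.3.3, default empirical Bayes, 4 residual and 3.24 prior degrees of freedom), two-sided, with Benjamini-Hochberg adjusted p under 0.05 as the call. Dio1 was tested only within tumours. The script was tested on simulated data. Members, lists, tests and the rule for named genes (all members, Spint1, list genes called or otherwise the up to 4 of smallest p per list, and the 5 closest profiles per member, with Hnf4a and Gata4 added after their values were seen) were chosen with earlier results of these data known. A gene on a list is its brightest tested probe set. Promoters came from a RefSeq table that held 4 of the 5 genes. Figures were drawn with python.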

Additional observations from a re-analysis of the deposited data

How the results depend on the processing

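Alternatives were other filters, scalings, units of test, priors and sample sets, blocks and leaving out each array. Of 692 alternative values for 39 member differences, 656 were scored as the same. For a tested difference this meant the same direction and side of the threshold, and most were not called to begin with. For the Dio1 differences without a test it meant the same direction and a move of less than the residual SD. In control mice, the 2 members called between tumour and mucosa became 0 without the filter, where 45101 probe sets were tested, 4 with each array centred on its median, 1 with 1 probe set per gene, with the mean of a gene's probe sets or with only the groups compared, and 1 to 3 on leaving out 1 array. The settings with 1 value per gene hold genes and not single probe sets, so Thra 1443952_at was not tested there. Their counts are therefore not like for like with the others. Centring added Thra 1454675_at (-1.18) and Klf9 1422264_s_at (-1.71), and a spike-in block added Thra 1454675_at (-1.19). The call of Thra 1443952_at was lost when only the groups compared were fitted (adjusted p = 0.0667). The cause was not tested.

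The replicate numbers mark no shared mouse or day in the labels. With the replicate block 2 members were called in control mice and 0 in the other comparisons, while calls over all probe sets went from 5183 to 4740 and, for HAI-1 loss in mucosa, from 15 to 3. Deviations of same-numbered arrays correlated between -0.19 and 0.26. Calls over all probe sets depended on the setting, from 1532 to 6276 for tumours of control mice, 0 to 896 for tumours of deficient mice (4 in the fit reported), 0 to 213 for HAI-1 loss in mucosa and 0 to 92 for HAI-1 loss in tumours. Scaling moved the median difference of all probe sets in control mice by -0.12 (quantile) and -0.23 (centring), and the share of calls that were higher from 66.8% to 57.3% and 47.8%; in deficient mice centring gave 41 higher and 99 lower.

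The values that turned sign all belong to differences that were not called or not tested. Dio1 in tumour against mucosa of deficient mice was -0.0952 with centring and -1.11 to 1.35 without 1 array. Dio2 1418938_at in control tumours was -0.0560 with quantile normalization, -0.22 with centring and -0.58 to 0.60 without 1 array. Thra 1454675_at for HAI-1 loss was -0.44 to 0.32 in mucosa without 1 array. In tumours it was -0.0948 with quantile normalization, -0.12 with centring, -0.0112 with the mean of a gene's probe sets and -0.13 to 0.20 without 1 array. Without 1 array, HAI-1 loss in tumours was -0.0479 to 0.55 for Thra 1443952_at and -0.11 to 0.57 for Thrb. Klf9 1456341_a_at without 1 array was -0.62 to 0.39 for HAI-1 loss in mucosa, -0.0757 to 0.94 for tumours of control mice and -0.46 to 0.26 for tumours of deficient mice.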
